A study of Mus musculus with 21 samples.

Results

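The 6 genes described here are Bhlha15, which encodes the transcription factor Mist1, Cd24a, which encodes the surface protein used to sort the cells, and 4 genes reported to be driven by Mist1 in secretory cells, Rab3d, Rab26, Copz2 and Atp2c2. They were chosen by name from 18194 genes on the array. Every probe set whose single gene symbol was one of these names was taken, which gave 12 of 34958 probe sets (Affymetrix sets of short probes against one transcript). Rab3d had 4 of them, Cd24a had 3, Bhlha15 had 2, and Rab26, Copz2 and Atp2c2 had 1 each.

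Mist1 is a basic helix-loop-helix (bHLH) protein of cells that store and release protein, and in mouse pancreas and stomach it is needed for the size and order of the secretory granules. Such proteins bind DNA as dimers at E-boxes, short sites of the pattern CANNTG. Rab3d and Rab26 encode small GTPases of secretory vesicles, Copz2 encodes a zeta subunit of the COPI coat that shapes vesicles at the Golgi, and Atp2c2 encodes a calcium pump of the secretory pathway. In the small intestine, Paneth and goblet cells are the main granule-bearing cells, and CD24, a lipid-anchored surface glycoprotein, is abundant on Paneth cells.

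The study profiled TdTomato-positive cells of mouse small intestine, called Mist1+ in the labels, after they had been gated by CD24 and sorted by flow cytometry. All 20 sorted samples carried this marker, in CD24hi and CD24lo fractions of 5 conditions, with 2 arrays in each of the 10 groups. The sample titles name these fractions Misthi and Mistlo. Whether the gate also split cells by the level of the marker was not tested. The conditions were Lgr5 ablation (also labelled DT), irradiation with 10 Gy, doxorubicin (a drug that damages DNA), NICD (a name the labels do not spell out) and no treatment. One further array, of whole intestine, carries villi as its cell type. The reporter allele, the means of ablation and of NICD expression, ages, and the times after treatment were not given in the sources used here, and no group had DT without ablation. The labels do not tie the 2 arrays of a group to separate animals, and p-values therefore measure only the spread between these samples. In bulk samples of this kind, fewer cells of a type and less RNA per cell cannot be told apart.

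The start regions of 3 of the 6 genes could be read from RefSeq (GRCm38.p6), and they are shown because bHLH proteins act at E-boxes and because 2 of the 3 genes, Bhlha15 and Copz2, differed most between the fractions. Each runs 5′ to 3′ on the strand of its gene, from 250 bases before the annotated start to 50 bases after it. Capitals mark every E-box of the pattern CANNTG, which is symmetric between the strands although a single box need not be. The Bhlha15 region lies at chr5:144190036-144190335 on the plus strand, Rab3d at chr9:21918134-21918433 on the minus strand and Copz2 at chr11:96849626-96849925 on the plus strand.
Bhlha15: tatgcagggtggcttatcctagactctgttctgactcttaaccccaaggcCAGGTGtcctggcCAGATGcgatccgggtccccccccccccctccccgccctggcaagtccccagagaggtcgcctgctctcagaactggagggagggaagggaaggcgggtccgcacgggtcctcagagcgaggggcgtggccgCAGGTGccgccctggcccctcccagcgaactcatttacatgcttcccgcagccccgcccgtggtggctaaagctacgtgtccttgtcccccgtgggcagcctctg
Rab3d: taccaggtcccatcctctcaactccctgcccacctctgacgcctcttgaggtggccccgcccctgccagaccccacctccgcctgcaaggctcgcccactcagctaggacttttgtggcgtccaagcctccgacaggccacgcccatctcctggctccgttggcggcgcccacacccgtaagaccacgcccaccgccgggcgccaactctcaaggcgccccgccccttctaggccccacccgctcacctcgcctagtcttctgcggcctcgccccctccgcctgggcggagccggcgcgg
Copz2: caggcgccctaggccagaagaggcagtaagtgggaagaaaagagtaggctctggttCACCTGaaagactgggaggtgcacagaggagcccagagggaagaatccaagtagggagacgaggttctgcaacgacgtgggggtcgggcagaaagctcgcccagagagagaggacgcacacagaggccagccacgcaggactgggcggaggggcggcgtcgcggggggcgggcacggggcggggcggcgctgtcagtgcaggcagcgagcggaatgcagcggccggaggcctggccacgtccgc
The Bhlha15 region held 3 E-boxes, with first bases at -200, -187 and -55 from the start, 2 of them with the letters CAGGTG and 1 with CAGATG. The Copz2 region held 1 E-box at -194 with the letters CACCTG, which is CAGGTG read on the other strand, and the Rab3d region held 0. None of the 3 regions held CAGCTG or CATATG. Of 32851 start regions of the same length, 72.3% held a CANNTG box, with a median of 1 each, 20.2% held CAGGTG or CACCTG, 17.2% held CAGATG on either strand, 16.3% held CAGCTG and 3.91% held CATATG. These matches are descriptions of letters in a window and were not tied to binding. The genes themselves lie at chr5:144190286-144194441 (Bhlha15), chr10:43579169-43584265 (Cd24a), chr9:21907491-21918199 (Rab3d), chr17:24529054-24533747 (Rab26), chr11:96849876-96861203 (Copz2) and chr8:119700009-119757718 (Atp2c2).

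Values are MAS5 signals, linear brightness in arbitrary units that cannot be compared between probe sets. The median signal ran from 101 to 158 over the sorted arrays and was 62.7 for whole intestine, and between replicates of a group Pearson's r over the kept probe sets, which are not independent, was 0.937 to 0.983. Differences are on the scale of log2(signal + 16), which understates the change of dim genes, with standard errors from limma fitted to 22531 probe sets and adjusted p-values (Benjamini-Hochberg) over all of them at a threshold of 0.05. The second CD24hi array with NICD stood apart in its controls, where the cre 3′ spike-in read 59464, whereas it read 19375 to 40251 on the 19 remaining sorted arrays, and it had an actin 3′ to 5′ ratio of 1.03 against 1.3 to 1.58. Lgr5 was not past the threshold after Lgr5 ablation, with differences from untreated cells of -1.30 in CD24hi and -1.42 in CD24lo cells, nor were Notch1 and Hes1 with NICD in either fraction.

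Bhlha15 was far more abundant in CD24hi than in CD24lo cells in every condition. Its brighter probe set, 1449233_at, read 1845 and 1828 after Lgr5 ablation, 4707 and 2583 after irradiation, 1909 and 1787 after doxorubicin, 1237 and 1496 with NICD, and 2157 and 2792 untreated in CD24hi cells. In CD24lo cells it read 513 and 370 after Lgr5 ablation, 448 and 665 after irradiation, 268 and 211 after doxorubicin, 484 and 424 with NICD, and 560 and 563 untreated. The lowest CD24hi array thus lay above the highest CD24lo array, and the fractions did not overlap. Averaged over the 5 conditions, the difference was 2.24 ± 0.12 (SE, 10 arrays against 10), a 4.73-fold higher level in CD24hi cells, with limma's adjusted p = 1.76e-10. An exact permutation test, two-sided, of the fraction labels within conditions gave p = 0.000257, the smallest that its 7776 arrangements allow. All sorted cells had been selected as Mist1+, and the sample titles name the fractions by Mist. The part of the sort in this difference was not tested. The second probe set, 1418800_at, ran from 151 to 533 in CD24hi cells, with a median of 285, and from 24 to 124 in CD24lo cells, with a median of 81. It correlated with the first at r = 0.93 over the 20 arrays and differed by 1.75 ± 0.15, but it was above its array's median on 9 CD24hi arrays and on 0 CD24lo arrays, so it passed the filter on low values only through the fraction where it was high.

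**Figure D1:**
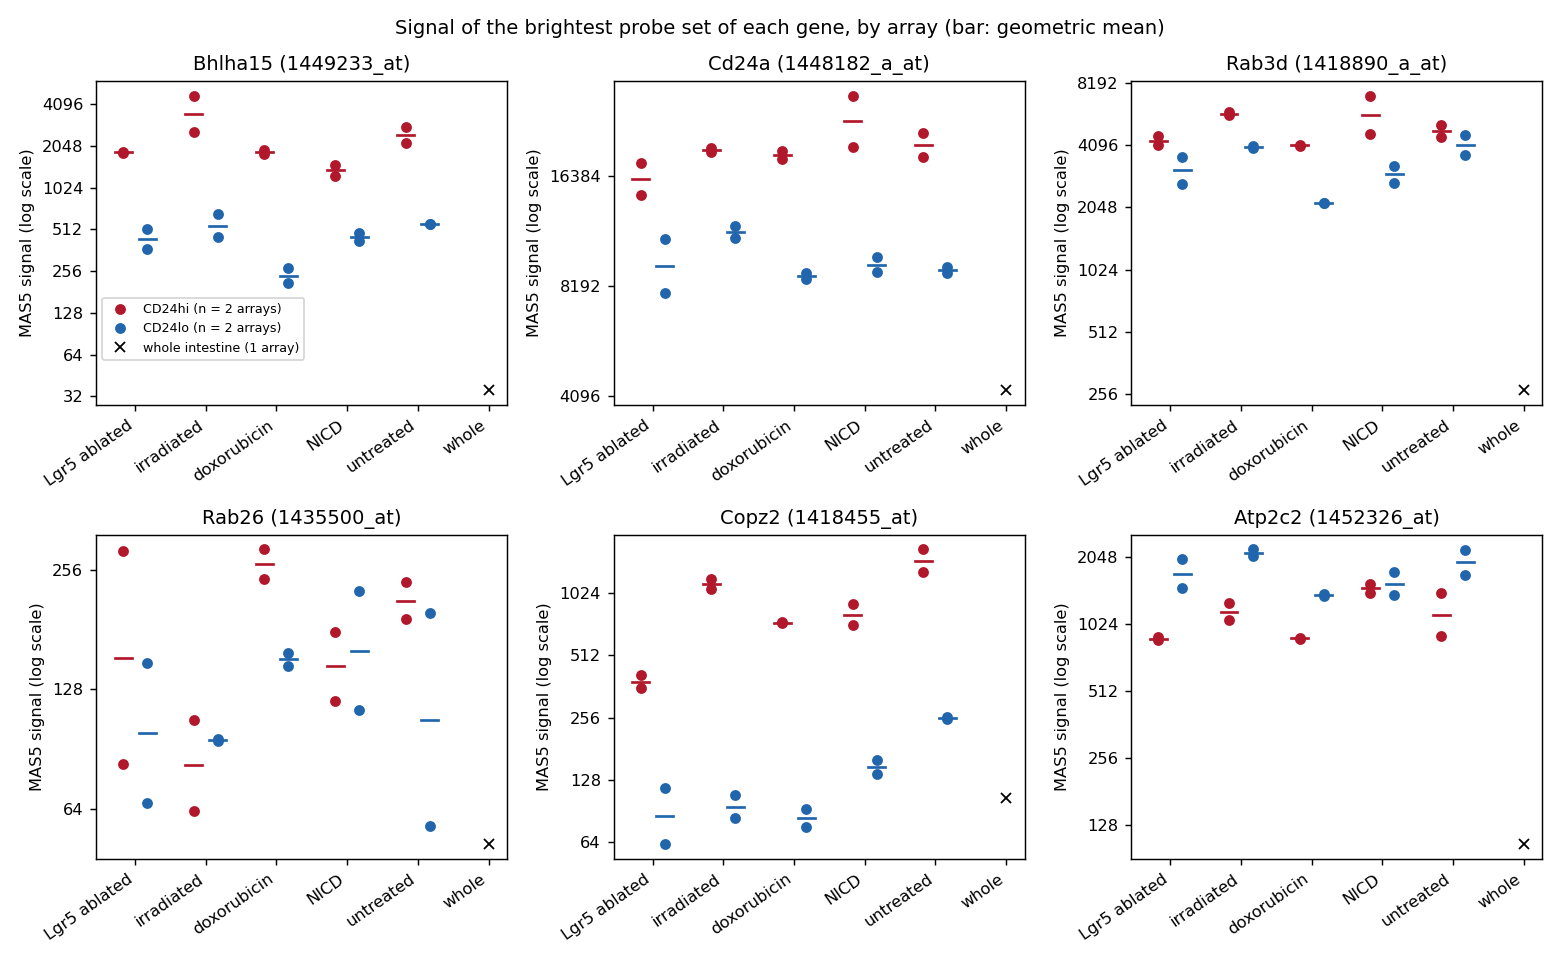
MAS5 signal (vertical log axis, arbitrary units) of the brightest probe set of each of the 6 genes on every array, with CD24hi (red) left of CD24lo (blue) in each condition, bars at the geometric mean of 2 arrays, and a cross for the single whole intestine array. Bhlha15 and Copz2 separate the fractions in every condition, Rab26 does not, and the Atp2c2 arrays of CD24hi cells lie below those of CD24lo cells except with NICD, where they overlap.

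Over all 22531 probe sets, 43.3% passed the threshold in this averaged comparison, 25.8% higher and 17.5% lower in CD24hi cells, so a call was common. Among the 12 probe sets of the 6 genes, 9 were higher and 1 was lower in CD24hi cells, and the median over the brightest probe set of each gene was 0.82 against 0.07 over all probe sets. Those numbers include Cd24a, whose product was the sorting marker, and 1418800_at of Bhlha15. Without these, 6 of 8 passed, 5 of them higher. Of the 4 genes reported to depend on Mist1, Copz2 and Rab3d were higher, Atp2c2 was lower and Rab26 did not pass. Each of the 12 calls was the same without the second CD24hi NICD array, where Bhlha15 differed by 2.21, and over the 4 other conditions without NICD, where it differed by 2.41.

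Copz2, the coat subunit, had the largest difference of the 6 genes. Its signals in CD24hi cells were 356 and 410 after Lgr5 ablation, 1196 and 1072 after irradiation, 738 and 729 after doxorubicin, 715 and 901 with NICD, and 1286 and 1655 untreated. In CD24lo cells they were 118 and 63 after Lgr5 ablation, 84 and 109 after irradiation, 92 and 76 after doxorubicin, 161 and 137 with NICD, and 253 and 256 untreated. No CD24hi array reached down to a CD24lo array, while 7 of the 10 CD24lo arrays lay at or below the median of their own array. The averaged difference was 2.60 ± 0.11, or 6.05-fold (limma, adjusted p = 2.92e-11). Within a condition it ran from 1.95 after Lgr5 ablation to 3.36 after irradiation and passed in all 5.

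Rab3d, the granule GTPase, was bright in both fractions and differed less. Its brightest probe set, 1418890_a_at, read 4550 and 4088 after Lgr5 ablation, 5708 and 5904 after irradiation, 4087 and 4078 after doxorubicin, 4662 and 7099 with NICD, and 4462 and 5135 untreated in CD24hi cells. In CD24lo cells it read 3598 and 2664 after Lgr5 ablation, 3981 and 4043 after irradiation, 2146 and 2147 after doxorubicin, 3260 and 2698 with NICD, and 3682 and 4604 untreated. The fractions overlapped, since 5 of 10 CD24hi arrays lay above the highest CD24lo array. The averaged difference was 0.62 ± 0.09, or 1.54-fold (limma, adjusted p = 2.29e-05), and the exact permutation test within conditions gave p = 0.000514. Probe sets 1418891_a_at and 1449259_at differed by 0.66 and 0.53 and also passed. The fourth, 1449260_at, ran from 94 to 214 in CD24hi cells and from 126 to 235 in CD24lo cells, differed by -0.03 (adjusted p = 0.899) and correlated with the others at only 0.04 to 0.18 over the 20 arrays, whereas the other 3 correlated at 0.83 to 0.95.

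Rab26, the other vesicle GTPase, was dim and variable. It read 285 and 83 after Lgr5 ablation, 107 and 63 after irradiation, 243 and 288 after doxorubicin, 120 and 179 with NICD, and 238 and 192 untreated in CD24hi cells. In CD24lo cells it read 149 and 66 after Lgr5 ablation, 96 and 95 after irradiation, 146 and 158 after doxorubicin, 113 and 226 with NICD, and 58 and 199 untreated. The fractions overlapped, and only after doxorubicin were both CD24hi arrays above both CD24lo arrays. The averaged difference of 0.38 (95% interval -0.12 to 0.87, adjusted p = 0.208, limma) was within the spread between replicates. No comparison of Rab26 passed, although in a fit to the compared groups alone the doxorubicin difference of 0.74 did (limma, adjusted p = 0.028). It was above the array median on 6 of 10 CD24hi arrays and 4 of 10 CD24lo arrays, and the interval leaves room for a change of up to 0.87.

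Atp2c2, the calcium pump, went the other way. In CD24hi cells it read 892 and 862 after Lgr5 ablation, 1061 and 1269 after irradiation, 875 and 884 after doxorubicin, 1406 and 1552 with NICD, and 899 and 1403 untreated. In CD24lo cells it read 1991 and 1484 after Lgr5 ablation, 2208 and 2058 after irradiation, 1363 and 1386 after doxorubicin, 1744 and 1379 with NICD, and 1702 and 2198 untreated. In 4 conditions both CD24hi arrays lay below both CD24lo arrays, and with NICD they overlapped. The averaged difference was -0.66 ± 0.10, or 0.632-fold (limma, adjusted p = 3.06e-05), and the exact permutation test within conditions gave p = 0.000772. Over the 4 conditions without NICD it was -0.81.

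Cd24a, the gene of the sorting marker, is given as a description. Its brightest probe set, 1448182_a_at, read 17801 and 14522 after Lgr5 ablation, 19617 and 19088 after irradiation, 19185 and 18311 after doxorubicin, 19722 and 27244 with NICD, and 18465 and 21547 untreated in CD24hi cells. In CD24lo cells it read 11061 and 7874 after Lgr5 ablation, 11998 and 11123 after irradiation, 8562 and 8883 after doxorubicin, 8979 and 9832 with NICD, and 8912 and 9230 untreated. The fractions did not overlap, yet the mean difference was only 1.01, or 2.02-fold, and CD24lo cells still held the probe set among the brightest of their arrays, at the 98.9th percentile or higher. Probe sets 1416034_at and 1437502_x_at differed by 1.15 and 1.16, and the 3 correlated at 0.97 to 0.99.

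Within single conditions, 2 arrays against 2, Bhlha15 and Copz2 kept their calls. The share of all probe sets called in CD24hi against CD24lo cells was 5.38% after Lgr5 ablation, 13.7% after irradiation, 24.2% after doxorubicin, 21.6% with NICD and 12.4% untreated. Without Cd24a and 1418800_at, the calls among 8 probe sets were 3 after Lgr5 ablation, 4 after irradiation, 6 after doxorubicin, 4 with NICD and 4 untreated. Bhlha15 (1449233_at) differed by 2.04 after Lgr5 ablation, 2.64 after irradiation, 2.88 after doxorubicin, 1.55 with NICD and 2.10 untreated, each ± 0.26. Copz2 differed by 1.95, 3.36, 2.91, 2.31 and 2.45 in the same order, each ± 0.25. Neither of these probe sets lost a call in any condition when any 1 array was left out, but in a fit to the compared groups alone Copz2 after Lgr5 ablation had an adjusted p of 0.0865 (limma). The dim probe set 1418800_at lost its call after Lgr5 ablation without CD24lo replicate 2 (1.62) or CD24hi replicate 1 (1.55), and after doxorubicin without CD24lo replicate 2 (1.28).

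The other calls within a condition were less firm. Atp2c2 differed by -0.96 after Lgr5 ablation, -0.87 after irradiation, -0.64 after doxorubicin and -0.78 untreated, all past the threshold, and by -0.07 (95% interval -0.53 to 0.39) with NICD. Each of those 4 calls was lost without at least 1 array. The untreated difference was -0.59 without CD24lo replicate 2 and -0.46 without CD24hi replicate 1, and the irradiated difference was -0.82 without CD24lo replicate 1 and -0.74 without CD24hi replicate 1. After Lgr5 ablation it was -0.75 without CD24lo replicate 1, -0.98 without CD24hi replicate 1 and -0.94 without CD24hi replicate 2, and after doxorubicin leaving out any 1 of the 4 arrays ended the call at -0.65 to -0.62. Rab3d (1418890_a_at) passed after doxorubicin, with 0.92 ± 0.20, and with NICD, with 0.95 ± 0.20, but with NICD not without CD24lo replicate 2 (0.82) or without CD24hi replicate 2 (0.65). In untreated cells its difference was 0.22 (95% interval -0.20 to 0.63). The other Rab3d probe sets passed elsewhere. Probe set 1449259_at passed untreated with 0.62, after irradiation with 0.60 and after doxorubicin with 0.65 (limma, adjusted p = 0.0195, 0.0227 and 0.00898). Those calls were lost untreated without CD24lo replicate 1 (0.56), CD24hi replicate 1 (0.61) or CD24hi replicate 2 (0.64), after irradiation without any 1 of the 4 arrays (0.58 to 0.62), and after doxorubicin without CD24lo replicate 2 (0.46) or CD24hi replicate 1 (0.60). Probe set 1418891_a_at passed after doxorubicin with 0.74, a call lost without any 1 of the 4 arrays (0.66 to 0.82), and with NICD with 1.15, a call lost without CD24lo replicate 2 (1.02) or CD24hi replicate 2 (0.80).

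**Figure D2:**
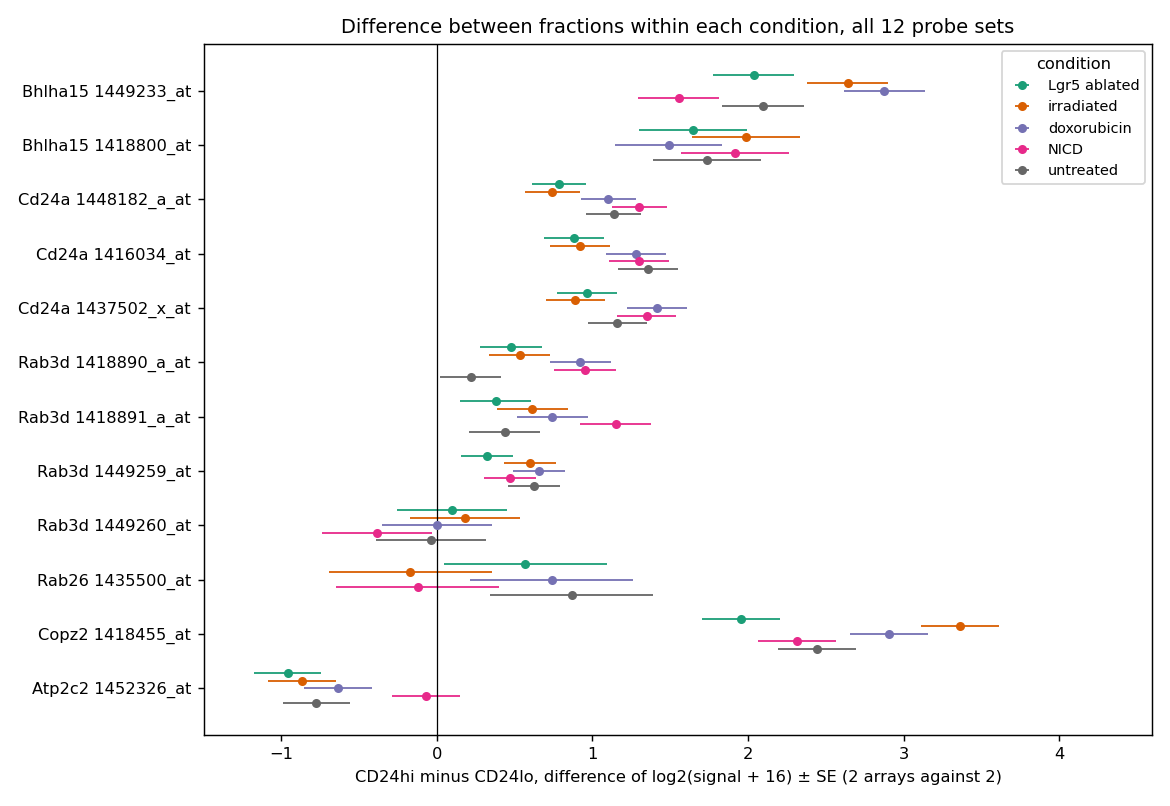
CD24hi minus CD24lo difference of log2(signal + 16) (horizontal axis) for all 12 probe sets, 1 point per condition, 2 arrays against 2, with lines of ± 1 SE. All Bhlha15 points lie between 1.49 and 2.88 and all Copz2 points between 1.95 and 3.36, while Atp2c2 lies below 0 in every condition, closest to it with NICD at -0.07.

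The conditions were then set against untreated cells of the same fraction. All 4 comparisons in a fraction share the same 2 untreated arrays, so their differences are given side by side and not as separate evidence. In CD24lo cells, the share of all probe sets called was 0.213% after Lgr5 ablation, 3.91% after irradiation, 12.4% after doxorubicin and 11.9% with NICD. Of the 12 probe sets of the 6 genes, 1 fell after Lgr5 ablation, 1 after irradiation, 3 after doxorubicin and 1 with NICD, and 0 rose. In CD24hi cells the shares of all probe sets were 0.621%, 3.74%, 0.888% and 5.39% in the same order. There, 1 of the 12 probe sets fell after Lgr5 ablation, and in the other 3 comparisons 0 passed.

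Copz2 carried most of these calls. In CD24lo cells its signals of 118 and 63 after Lgr5 ablation, 84 and 109 after irradiation and 92 and 76 after doxorubicin all lay below the untreated 253 and 256. It fell by 1.40 on the log2 scale after Lgr5 ablation (SE 0.25, limma, adjusted p = 0.0253), by 1.28 after irradiation (adjusted p = 0.00909) and by 1.44 after doxorubicin (adjusted p = 0.00244). With NICD the difference was -0.72 (adjusted p = 0.0683), although both arrays lay below both untreated ones. The ablated, irradiated and doxorubicin signals of CD24lo cells lay below the medians of their arrays, where dim values were not separated from background. The ablation call was lost without untreated replicate 1 (-1.41) or 2 (-1.39) or without ablated replicate 2 (-1.02), and the irradiation call without untreated replicate 2 (-1.27) or irradiated replicate 1 (-1.11). Both were also lost in a fit to the compared groups alone (adjusted p = 0.973 and 0.0702, limma). The doxorubicin call held without any 1 array. In CD24hi cells Copz2 read 356 and 410 after Lgr5 ablation against 1286 and 1655 untreated, and it fell by 1.89 ± 0.25 (limma, adjusted p = 0.000798), a call that held without any 1 array. The other CD24hi differences were -0.36 after irradiation, -0.98 after doxorubicin (adjusted p = 0.0867) and -0.85 with NICD (adjusted p = 0.0577). Signals summed over a list, here and below, follow its brightest probe sets most. Among 6 stem cell genes, Olfm4 reached 20382 and Tnfrsf19 reached 270 in CD24hi cells. Sums over the 6 were low in the same groups, at 13836 to 15865 in ablated against 28450 to 30733 in untreated CD24hi cells. In CD24lo cells these sums were 5810 to 8528 after ablation and 1509 to 2558 after irradiation against 12443 to 14264 untreated, and their part in the Copz2 differences was not tested. In CD24hi cells the stem sums were 7570 to 8361 after irradiation, 16522 to 17505 after doxorubicin and 23017 to 26765 with NICD. The Copz2 differences there were -0.36, -0.98 and -0.85 in the same order, and a link between them was not tested.

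Bhlha15 itself was low in CD24lo cells after doxorubicin, at 268 and 211 against 560 and 563 untreated. It fell by 1.19 ± 0.26 (limma, adjusted p = 0.00877). That call was lost without untreated replicate 2 (-1.18) or without doxorubicin replicate 2 (-1.03), and probe set 1418800_at, which is dim in this fraction, differed by -0.47 (adjusted p = 0.39). In CD24hi cells after doxorubicin the difference of 1449233_at was -0.41 (95% interval -0.96 to 0.15). After irradiation the difference was 0.50 in CD24hi cells (95% interval -0.05 to 1.06) and -0.04 in CD24lo cells (95% interval -0.59 to 0.51). With NICD the CD24hi difference was -0.84 (95% interval -1.40 to -0.29, adjusted p = 0.0684), and both NICD arrays, at 1237 and 1496, lay below the untreated 2157 and 2792.

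With NICD in CD24lo cells, probe set 1418800_at of Bhlha15 read 66 and 24 against 99 and 117 untreated, a difference of -1.12 with an adjusted p of 0.0447 (limma). It was lost without NICD replicate 2, at -0.60, and without untreated replicate 1, at -1.22, or 2, at -1.01. Probe set 1449233_at of the same gene differed by -0.30 (adjusted p = 0.452). Of the 2 probe sets, only the dim one passed.

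Rab3d (1418890_a_at) also fell in CD24lo cells after doxorubicin, where it read 2146 and 2147 against 3682 and 4604 untreated. The difference was -0.94 ± 0.20 (limma, adjusted p = 0.00683), and it was lost without untreated replicate 2 (-0.77) or doxorubicin replicate 1 (-0.94). Its probe sets 1418891_a_at and 1449259_at differed by -0.58 (adjusted p = 0.0991) and -0.21 (adjusted p = 0.431), so only 1 of the 4 passed. Cd24a, Rab26 and Atp2c2 had no call against untreated cells in either fraction. The Cd24a differences of 1448182_a_at ran from -0.31 to 0.35. Atp2c2 was nearest to a call after doxorubicin in CD24lo cells, at -0.49 (95% interval -0.94 to -0.03, adjusted p = 0.144).

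**Figure D3:**
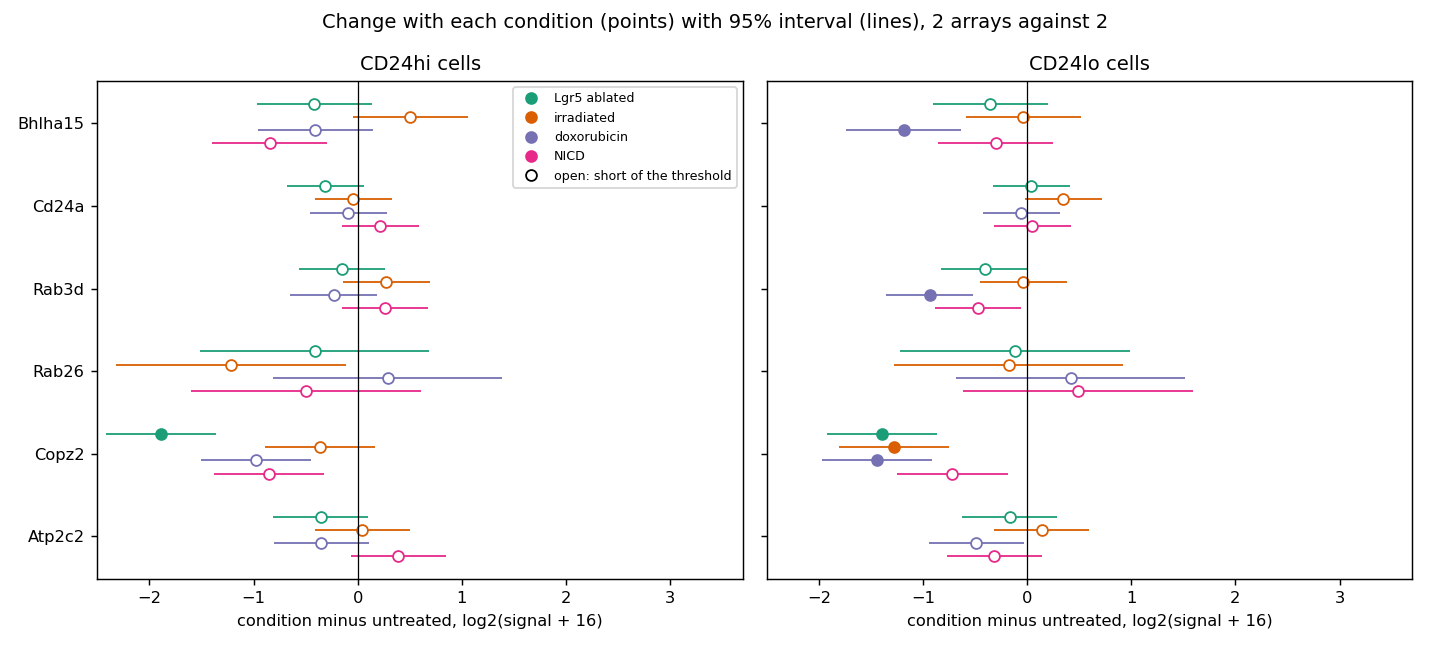
Difference of each condition from untreated cells in log2(signal + 16) (horizontal axis) for the brightest probe set of each gene, CD24hi left and CD24lo right, with 95% intervals and filled points past the threshold, 2 arrays against 2. Copz2 is the only gene of the 6 with a filled point in CD24hi cells, at -1.89, and it has 3 in CD24lo cells, where Bhlha15 and Rab3d have 1 each.

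Whether a condition acted differently in the fractions was tested as the difference of its effects, CD24hi minus CD24lo. Of all probe sets, 0.00444% passed for Lgr5 ablation, 0% for irradiation, 0.00888% for doxorubicin and 1.67% for NICD. Unadjusted p-values below 0.05 (limma) were found for 978, 888, 2192 and 5744 of the 22531 probe sets in the same order. None of the 48 tests on the 12 probe sets passed in limma. An unadjusted p below 0.05 was found for 5 of the 48, which is not read as a result beside those counts. For Bhlha15 after doxorubicin, the difference of effects was 0.78 (adjusted p = 0.516), and its 95% interval ran from just below 0 to 1.56. For Copz2 it was 0.92 after irradiation (95% interval 0.17 to 1.67, adjusted p = 1) and -0.49 after Lgr5 ablation (95% interval -1.24 to 0.26). For Atp2c2 with NICD it was 0.70 (95% interval 0.06 to 1.35, adjusted p = 0.162), and for Rab3d (1418890_a_at) with NICD it was 0.74 (95% interval 0.15 to 1.32, adjusted p = 0.117). Without the first CD24hi NICD array the Rab3d value was 1.04 and passed (adjusted p = 0.0118), as did that of 1418891_a_at, at 1.06, but the lone array then left in that group is the one that stood apart in its controls, and it is assumed to vary like the other groups.

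Ordered by mean level, the 10 groups fell into the same 2 blocks for Bhlha15, Copz2 and Cd24a, with all 5 CD24hi groups above all 5 CD24lo groups. For Bhlha15 the mean of log2(signal + 16) was highest in irradiated CD24hi cells (11.77 ± 0.61, SD, n = 2), then in untreated (11.27 ± 0.26), doxorubicin (10.86 ± 0.07), Lgr5-ablated (10.86 ± 0.01) and NICD (10.43 ± 0.19) CD24hi cells. Irradiated and untreated CD24hi cells overlapped, as did doxorubicin and Lgr5-ablated ones. The CD24lo groups followed with untreated (9.17 ± 0.01), irradiated (9.13 ± 0.39), NICD (8.87 ± 0.13) and Lgr5-ablated (8.82 ± 0.32) cells, each overlapping its neighbour, and doxorubicin cells (7.99 ± 0.23) stood below them.

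For Copz2 the order began with untreated CD24hi cells (10.53 ± 0.25), followed by irradiated (10.17 ± 0.11), NICD (9.68 ± 0.23), doxorubicin (9.55 ± 0.01) and Lgr5-ablated (8.64 ± 0.14) CD24hi cells. Of these neighbours only NICD and doxorubicin overlapped. Untreated CD24lo cells came next (8.08 ± 0.01) and then NICD cells (7.36 ± 0.14), while irradiated (6.80 ± 0.23), Lgr5-ablated (6.68 ± 0.54) and doxorubicin (6.64 ± 0.17) CD24lo cells overlapped at the bottom. For Atp2c2 the first 4 places went to CD24lo groups, from irradiated (11.07 ± 0.07) to NICD (10.61 ± 0.24), and NICD CD24hi cells (10.54 ± 0.10) came next, overlapping the NICD CD24lo cells. The lowest were doxorubicin (9.81 ± 0.01) and Lgr5-ablated (9.80 ± 0.03) CD24hi cells, which overlapped. For Rab3d (1418890_a_at) the groups ran from irradiated CD24hi cells (12.51 ± 0.03) to doxorubicin CD24lo cells (11.08, both arrays alike). The fractions interleaved only where untreated CD24lo cells (12.01 ± 0.23) ranked above doxorubicin CD24hi cells (12), and these overlapped. By 1418891_a_at all CD24hi groups of Rab3d ranked above all CD24lo groups, with overlap where the 2 blocks met. For Rab26, 8 of 9 neighbouring pairs overlapped, between doxorubicin CD24hi cells (8.13 ± 0.16) and irradiated CD24hi cells (6.63 ± 0.45).

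Across the 20 sorted arrays, which share the sort, the platform and the 2 blocks of fractions, Bhlha15 correlated with Copz2 at r = 0.92, with Cd24a at 0.88, with Rab3d at 0.81, with Rab26 at 0.18 and with Atp2c2 at -0.61 (brightest probe sets, as a description). When each value was taken relative to the mean of its fraction, these became 0.56 for Copz2, 0.17 for Cd24a, 0.60 for Rab3d, -0.25 for Rab26 and 0.28 for Atp2c2. Atp2c2 and Rab3d had r = -0.13 over the 20 arrays and 0.83 within the fractions, and Atp2c2 and Cd24a had -0.52 and 0.73. The sign for Atp2c2 with Bhlha15, Rab3d and Cd24a thus differed between the view across fractions and the view within them. With Rab26 it did not, at -0.38 and -0.25.

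**Figure D4:**
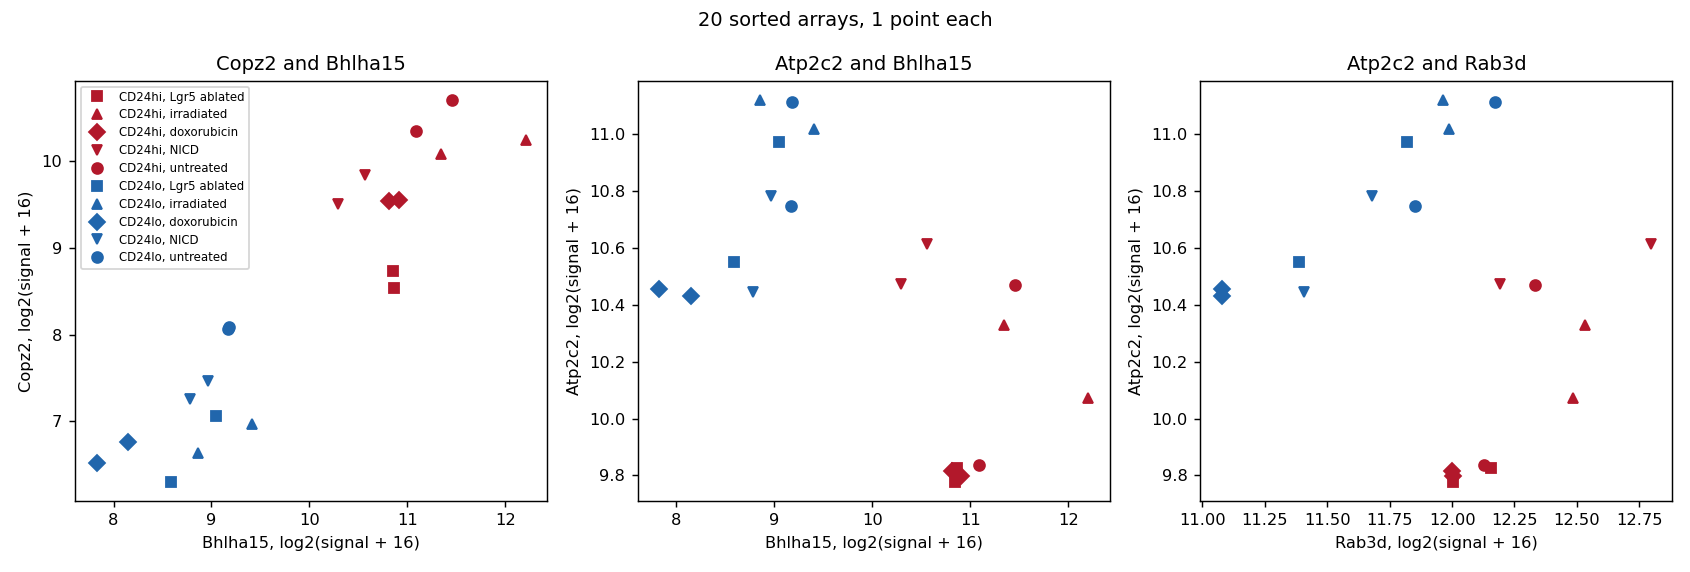
Levels in log2(signal + 16) of Copz2 against Bhlha15, Atp2c2 against Bhlha15, and Atp2c2 against Rab3d, 1 point per sorted array, with CD24hi in red, CD24lo in blue and a symbol per condition. Copz2 and Bhlha15 form a low and a high cloud (r = 0.92), and Atp2c2 and Rab3d run upward within each fraction (r = 0.83 after the mean of the fraction is taken out) on separate levels.

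Among 11853 other genes, those most like Bhlha15 over the 20 arrays were Bambi (r = 0.979), Fzd9 (0.978) and Tent5c (0.972), and within the fractions Rassf6 (0.878), Bambi (0.865) and Fzd9 (0.856). Bambi and Fzd9 thus ranked in the first 3 by both measures. Copz2 was most like Gnat2 (0.97), Tmed6 (0.963) and Slc16a7 (0.961), and within the fractions like Gnat2 (0.862), Sdr16c6 (0.856) and Pdia2 (0.848). Cd24a was most like Lbh (0.968), Reep5 (0.965) and Tle6 (0.956), but none of these was among its first 3 within the fractions, which were Rabep1 (0.826), Cdon (0.824) and Ppt2 (0.824). Rab3d was most like Pglyrp1 by both measures (0.942 and 0.918 within the fractions), and Atp2c2 was most like Slc2a1 (0.863) over the arrays and Ptov1 (0.886) within the fractions. For Rab26 the same 3 genes, 6720489N17Rik (0.849), Ogn (0.815) and Isy1 (0.797), led by both measures.

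The single whole intestine array allowed no test, and the sorted cells set beside it had been selected as Mist1+. On it Bhlha15 (1449233_at) read 35, at the 39.2th percentile of that array, below the median, so that no fold over it is given. All 20 sorted arrays lay above that signal, at 1237 to 4707 in CD24hi and 211 to 665 in CD24lo cells. The second probe set, 1418800_at, read 38 there, and 19 of the 20 sorted arrays lay above it. Rab3d (1418890_a_at) read 268 there, and the sorted arrays were at least 8.01-fold higher as measured, with a median of 15.2-fold. Atp2c2 read 105, and its sorted arrays were 8.21-fold higher or more. Cd24a (1448182_a_at) read 4253, still at the 95.5th percentile, and the sorted arrays had a median of 3.12-fold over it. Copz2 read 104, inside the CD24lo range of 63 to 256, so the CD24lo median was 1.09-fold and the CD24hi median 7.85-fold that of whole intestine. Rab26 read 52, below all 20 sorted arrays.

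Genes around the 6 were read from lists named for the partners and the processes of each. In the averaged comparison, 46.3% of all genes passed, with a median difference of 0.07, and each list is set beside that. Of 7 bHLH partners and inhibitors, 2 were higher and 4 lower in CD24hi cells, with a median of -0.84. Tcf12, an E protein that pairs with tissue-specific bHLH factors, ran from 4139 to 6763 in CD24hi cells and from 1227 to 2284 in CD24lo cells without overlap, and was higher by 1.54 ± 0.09 (limma, adjusted p = 5.18e-10). Its other 4 kept probe sets passed in the same direction, at 0.66 to 1.72, and Tcf4, a further E protein, was higher by 0.54. All 4 Id genes, whose products bind E proteins and keep them off DNA, were lower in CD24hi cells, namely Id4 (-1.58), Id3 (-0.96), Id2 (-0.92) and Id1 (-0.84). With NICD the Id picture was mixed, since against untreated cells Id3 rose by 1.17 in CD24hi cells and fell by 1.15 in CD24lo cells, and the difference of these effects passed at 2.32 ± 0.46 (limma, adjusted p = 0.0348). Calls of listed genes with NICD, here and below, were not refitted without the CD24hi array that stood apart in its controls.

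Of 11 tested stress sensors and secretory transcription factors that act upstream of or beside Mist1, 3 were higher and 2 lower, with a median of 0.14. Sox9, a transcription factor needed for Paneth cells, was higher by 1.95 ± 0.17, Ern1, a sensor of unfolded protein, by 0.81 ± 0.08 and Atf6, another such sensor, by 0.54. Nr5a2 was lower by 1.08 and Atoh1, the factor that starts the secretory lineage, was lower by 0.23 (adjusted p = 0.0457). Within a condition Atoh1 passed with NICD, at -1.08, and in no other, and over the 4 conditions without NICD its average was -0.02 (adjusted p = 0.887). Xbp1, a factor known to switch on Bhlha15 in mouse secretory cells, differed by -0.04 (adjusted p = 0.79) in its brightest probe set, while its other 3 kept probe sets differed by 0.20 to 0.32 and 2 of them passed as higher. Against untreated CD24hi cells, Ern1 and Atoh1 fell by 0.74 and 0.76 with NICD.

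Of 20 tested granule Rab GTPases and exocytosis genes, 3 were higher and 9 lower, with a median of -0.16. The higher ones were Sytl1 (0.81), Syt7 (0.62) and Vamp2 (0.47), and the lower ones with the largest differences were Sytl4 (-0.95), Rab37 (-0.80) and Rab27b (-0.54), which encodes a GTPase that docks granules. Sytl2, also counted as lower at -0.29, differed by -0.12 without the NICD condition and did not pass there (limma, adjusted p = 0.27). The close relatives of Rab3d did not pass on average, with Rab3c at 0.52, Rab3b at 0.45 and Rab3a at 0.05. With NICD they were higher in CD24hi cells than in untreated ones, Rab3c by 3.62, Rab3b by 2.75 and Rab3a by 1.26, along with the neuroendocrine fusion protein gene Snap25 by 5.28, while Rab3d differed by 0.26. Rab3b was dim, with medians of 59 in CD24hi and 51 in CD24lo cells, below the lowest sorted array median of 101. Its value is a description, since dim values were not separated from background. Enteroendocrine marker sums were high with NICD, at 53365 to 86642 against 9961 to 11154 untreated in CD24hi cells and at 23218 to 23500 against 8828 to 12683 untreated in CD24lo cells. Their part in these values was not tested.

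Among 8 COPI coat subunit genes, where the average gave 0 calls, the differences ran from -0.24 (Copb1) to 0.14 (Copg2), and Copz1, the close relative of Copz2, differed by -0.14 (adjusted p = 0.136). Of 10 tested calcium pump and store genes, Itpr2, a calcium release channel, was higher by 1.06 and Orai1, Itpr3 and Atp2b1 were lower by 0.43, 0.38 and 0.32. Atp2c1, the close relative of Atp2c2, differed by 0.22 (adjusted p = 0.0752), and over the 4 conditions without NICD it passed at 0.27 (limma, adjusted p = 0.0497). Of 2 further genes reported to depend on Mist1, the gap junction gene Gjb1 differed by -0.34 (adjusted p = 0.0501) and Cdkn1a by 0.17 (adjusted p = 0.298). Without NICD, Gjb1 passed as lower at -0.44 (limma, adjusted p = 0.0255). After irradiation Cdkn1a, a cell cycle inhibitor induced by DNA damage, rose by 2.09 in CD24hi and 1.43 in CD24lo cells, and Gjb1 fell by 1.30 in CD24lo cells. After doxorubicin Cdkn1a did not pass, at 1.07 in CD24hi cells and 0.24 in CD24lo cells (limma, adjusted p = 0.0979 and 0.616). With NICD, Cdkn1a rose by 1.64 in CD24hi cells, differed by 1.26 between the fractions, and had a difference of effects that passed at 2.12 (limma, adjusted p = 0.0286). These Cdkn1a values also include the CD24hi NICD array that stood apart. Of 7 tested surface genes used with CD24 in crypt sorts, 4 were higher in CD24hi cells, Ephb3 (3.15 ± 0.19, without overlap of the fractions), Kit (1.19), Cd44 (0.81) and Prom1 (0.36), and 0 were lower. Alcam did not pass in its brightest probe set, at 0.13. Its other 4 kept probe sets differed by 0.20 to 0.43, and 3 of them passed as higher.

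**Figure D5:**
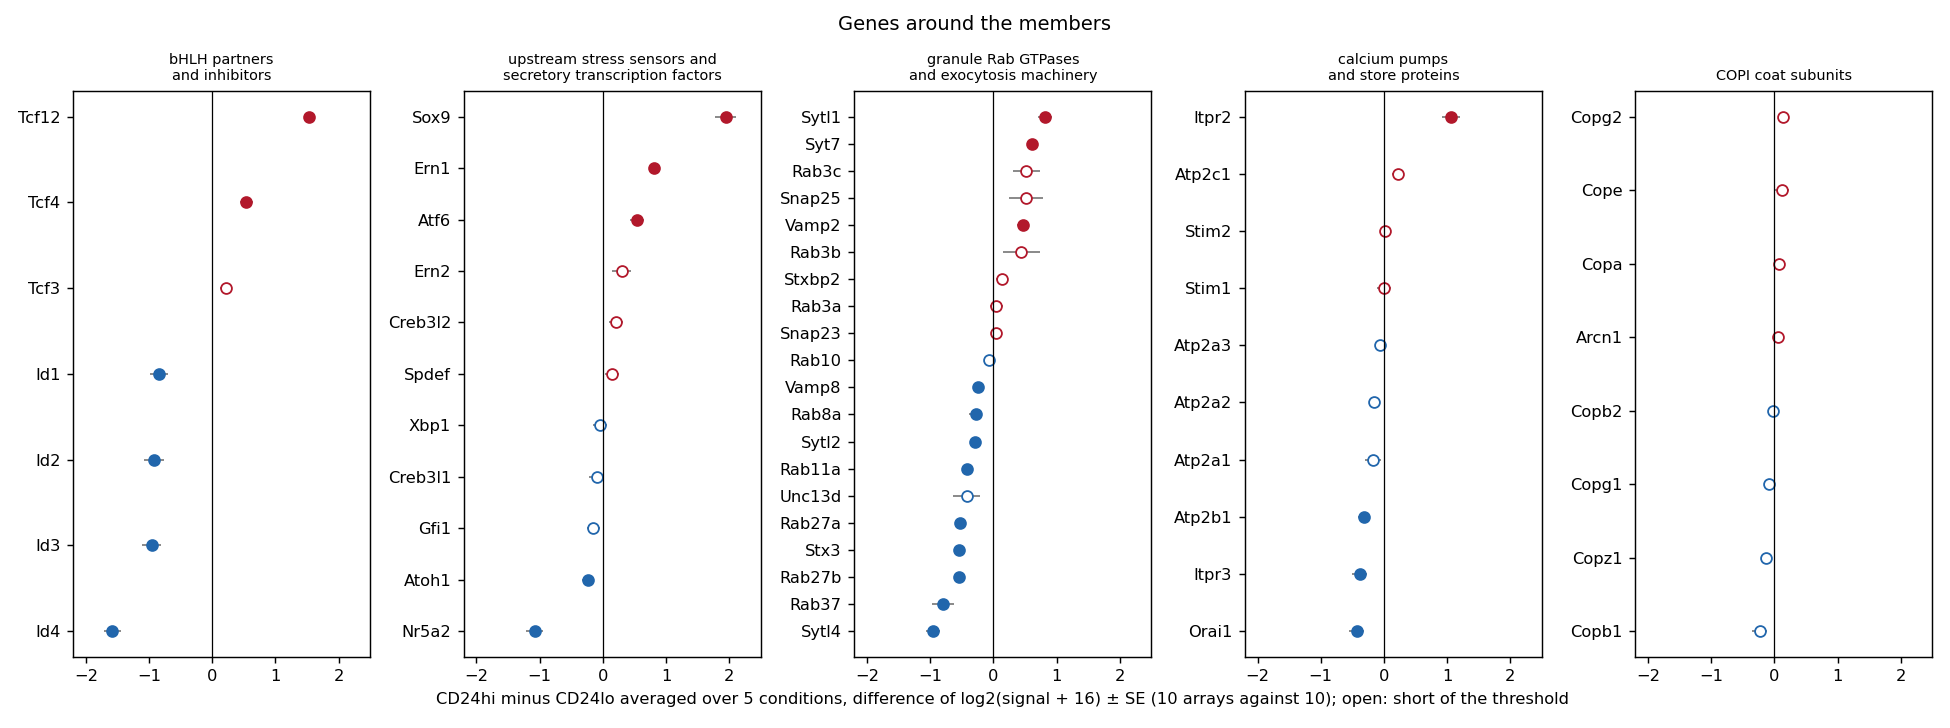
CD24hi minus CD24lo difference averaged over 5 conditions in log2(signal + 16) ± SE (horizontal axis, 10 arrays against 10) for each tested gene of 5 lists, filled past the threshold, red above and blue below 0. Tcf12 at 1.54 and the 4 Id genes between -1.58 and -0.84 lie on opposite sides, and the COPI genes lie between -0.24 and 0.14.

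Markers of cell types moved with the fractions as well. Over all probe sets, 25.8% were higher and 17.5% lower in CD24hi cells, and the counts of calls are set beside these shares. Summed signals of 6 Paneth genes ran from 68251 to 194024 in CD24hi and from 42152 to 77629 in CD24lo cells, with 5 of 6 higher. The upper end came from NICD, and the other CD24hi arrays reached at most 106865. All 6 tuft genes and all 6 stem genes passed as higher in CD24hi cells, with tuft sums of 871 to 12340 in CD24hi and 179 to 983 in CD24lo cells, and stem sums of 7570 to 30733 and 1509 to 19879. Of the tuft genes, Dclk1, Sh2d6 and Pou2f3 reached at most 57, 14 and 57 in CD24lo cells, below the lowest sorted array median of 101. They passed the filter on low values only through the fraction where they were high, and their calls are descriptions. Tuft sums of CD24hi cells were 10749 to 12340 with NICD and at most 3227 in the other conditions. All 6 enterocyte genes were lower, with sums of 10917 to 37500 in CD24hi and 25833 to 97965 in CD24lo cells, and 2 of 6 goblet genes were lower. Of the pan-epithelial genes 3 of 6 were lower, and of the enteroendocrine genes 3 of 7 were higher. In CD24lo cells after doxorubicin, where Bhlha15, Copz2 and Rab3d fell, the enterocyte sums were 86303 to 97965 against 42382 to 49638 untreated, the Paneth sums 42152 to 47758 against 65091 to 77629, and the stem sums 1918 to 2268 against 12443 to 14264. T cell sums were 3253 to 3360 there against 295 to 876 untreated, and sums of 6 pancreatic acinar genes were 833 to 2825 against 207 to 289. The part of such shifts in the differences of the 6 genes was not tested.

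Plasma cells and pancreatic acinar cells also express Bhlha15. Summed signals of 5 plasma cell genes ran from 3702 to 34175 in CD24hi and from 4217 to 23758 in CD24lo cells. Igha alone reached 21502 in CD24hi and 17757 in CD24lo cells. Of the 4 tested 0 passed between the fractions, where 43.3% of all probe sets did. Jchain, which plasma cells secrete with antibody, ran from 408 to 10668 and from 394 to 8151 in these fractions. Mzb1 ran from 8 to 443 and from 7 to 180, and Tnfrsf17, at 4 to 57 and 2 to 71, was dim throughout. Sums of 6 acinar genes ran from 261 to 3319 in CD24hi and from 203 to 2825 in CD24lo cells, with 1 of 6 higher beside 25.8% of all probe sets. In irradiated CD24hi cells, where Bhlha15 was highest, the acinar sums were 1507 to 3319 against 261 to 329 untreated, and the plasma cell sums were 3702 to 4243 against 12247 to 17123. The part of these cells in the Bhlha15 values was not tested. B cells, which express Cd24a, gave sums of 40 to 810 over 4 genes in CD24hi and 132 to 303 in CD24lo cells, and all 4 stromal genes lay below the array median on all 20 sorted arrays.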

How the data were processed

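Signals of 21 Affymetrix arrays, 20 of sorted cells and 1 of whole intestine, were taken from the authors' table. The authors used MAS5 (per the submitters' processing notes, with no version) to turn probe brightness into 1 linear intensity, called signal, per probe set, scaled so that each array has a mean of 500 once 2 percent is trimmed at either end. The deposited signal came without detection calls, so dim probe sets were not separated from background. The platform annotation gave 1 gene symbol to 34958 of 45101 probe sets, several to 932 and none to 9211, and symbols were checked against RefSeq for 34754. Probe sets above their array's median on at least 2 of the 20 sorted arrays were kept, 22531 in all, including all 12 of the 6 genes.

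Values were transformed to log2(signal + 16) and fitted with limma 3.58.1 in R 4.3.3, with 10 group means, 10 residual degrees of freedom and moderated variances with a trend. The 18 comparisons, two-sided, were adjusted by Benjamini-Hochberg over the kept probe sets at 0.05. The procedure was tested on simulated data. Arrays have no counted depth, and their number limits the precision.

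The genes and lists were chosen with earlier results of these data known. All probe sets of the 6 genes are described whatever their result. A gene's brightest kept probe set by mean represents it in lists and correlations. Up to 3 called genes per list are named in the averaged comparison and up to 2 in others, and further list genes, among them the close relatives of the 6 genes, were named after their values were seen. The 3 genes with the highest Pearson r are named as most alike. Replicate numbers were not used to pair the samples in the main fit. Over 45 pairs of groups the deviations of same-numbered arrays correlated at -0.38 to 0.36. The CD24hi and CD24lo groups of a condition were not examined apart from the rest, so a pairing between them was not settled. Tried as alternatives were quantile normalization, the 75th percentile as centre, a pseudocount of 64 or 1, no filter, a stricter filter (above the 60th percentile on at least 4 arrays), 1 probe set per gene, the replicate block, a fit to the compared groups only, leaving out each array, and, chosen after seeing the data, an average without NICD, also for the listed genes. Background correction and slides could not be varied from these values.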

Additional observations from a re-analysis of the deposited data

Results flagged for a closer look

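Over 24 tests of single arrays within a fraction of 10 arrays, 1 array was far from the others. For probe set 1418800_at of Bhlha15, the second CD24lo array with NICD had a log2(signal + 16) of 5.31, from a signal of 24, and the next lowest CD24lo array had a signal of 61. Chance marks about 5% of such sets of arrays. The call of this probe set with NICD in CD24lo cells was -1.12, and it was lost without that array, at -0.60, and also without untreated replicate 1, at -1.22, or 2, at -1.01.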

How the results depend on the processing

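No call reversed under any alternative. Of the single differences of the 12 probe sets, 1771 kept their side of the threshold under the alternatives, 18 lost it and 11 gained it, and with 1 array left out these numbers were 1193, 52 and 3. The averaged comparison kept 10 calls under each alternative except 1 probe set per gene. With 1 probe set per gene the calls were 5 for the average, 4 after Lgr5 ablation, 4 after irradiation, 5 after doxorubicin, 4 with NICD and 4 untreated, since only 6 probe sets then remain, and 0 for NICD in CD24lo cells. With only the compared groups in the fit, 1 call remained between the fractions after Lgr5 ablation, 0 in CD24lo cells after ablation, irradiation or with NICD, and 1 appeared in CD24hi cells after doxorubicin (Copz2). A pseudocount of 64 left 0 for NICD in CD24lo cells and gave 1 each (Copz2) for doxorubicin and NICD in CD24hi cells. Quantile normalization gave 2 for NICD in CD24lo cells and 1 in CD24hi cells. No filter or a stricter one left 0 for NICD in CD24lo cells, and so did the replicate block, whose pairing is by number alone and which kept 10 calls for the average. The cause of these shifts was not tested.

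With 1 array left out, the calls between the fractions ran from 2 to 6 after Lgr5 ablation, 4 to 7 after irradiation and 6 to 8 after doxorubicin. In CD24lo cells they ran from 0 to 1 after ablation, 0 to 1 after irradiation, 1 to 3 after doxorubicin and 0 to 1 with NICD, and for the difference of NICD effects from 0 to 2.

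Over all probe sets, counts moved by more than 1.5 times as follows. With 1 probe set per gene, 5529 were called against 9753 for the average, 1704 against 2797 untreated, 1868 against 3078 irradiated, 3351 against 5457 after doxorubicin and 2865 against 4864 with NICD. In CD24lo cells they were 28 against 48 after ablation, 477 against 881 after irradiation, 1747 against 2802 after doxorubicin and 1709 against 2683 with NICD, and in CD24hi cells 526 against 842 after irradiation and 778 against 1215 with NICD. With only the compared groups, they were 106 against 1213 between the fractions after ablation, 9380 against 5457 after doxorubicin, 2282 against 4864 with NICD, 3 against 48, 464 against 881 and 1364 against 2683 in CD24lo cells after ablation, irradiation and with NICD, and 53 against 140, 541 against 200 and 671 against 1215 for ablation, doxorubicin and NICD in CD24hi cells. The stricter filter gave 790 against 1215 for NICD in CD24hi cells. The difference of NICD effects had 376 calls, and 696 with a pseudocount of 64, 575 with quantile normalization, 76 with no filter, 246 with the replicate block and 71 with the compared groups only. That for doxorubicin had 2 calls and ran from 0 to 87. With 1 array left out, calls over all probe sets ran from 260 to 2310 between the fractions after ablation, 1223 to 2214 after irradiation, 2576 to 3079 after doxorubicin, 965 to 6982 with NICD and 1282 to 2127 untreated. In CD24hi cells they ran from 53 to 246, 255 to 858, 35 to 97 and 265 to 3936 for ablation, irradiation, doxorubicin and NICD, and in CD24lo cells from 18 to 79, 175 to 492, 617 to 2122 and 6 to 2667, and for the difference of NICD effects from 9 to 4788.

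Having only 2 arrays a group, the absence of detection calls and a single whole intestine array limit these results most for Rab26 and for the dim probe sets of Bhlha15 and Rab3d. They also limit Copz2 in CD24lo cells, where only 3 arrays lay above their own median.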
